A study of Canis lupus familiaris with 8 samples.

Results

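The LIF and IL-6 family signalling genes examined here were 3 kinds of member: the ligand genes LIF, IL6, IL11 and CLCF1, the receptor genes LIFR, IL6ST and OSMR, and the intracellular genes STAT3 and SOCS3. They were taken by symbol from the deposited table of exon counts, where all 9 members were found among 37952 genes. The libraries, stranded and polyA-selected, came from MDCK GII, a dog kidney epithelial cell line. Cells were grown overnight as a monolayer on a collagen-coated silicone membrane, and 4 stretch wells were then held under 18% static equi-biaxial strain for 2 hours, while 4 control wells carry the treatment label Control. All wells came from 1 line and are described as technical replicates spread over separate stretch devices, so the errors below describe the spread between wells, which may be technical. The study's title concerns force on E-cadherin and EGFR-ERK signalling through ligand shedding. The comparison asks which members of a different cytokine pathway differed in transcript level after strain.

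Cytokines of this family are secreted proteins that signal through receptor complexes built around the shared chain gp130, the product of IL6ST. LIF pairs gp130 with the LIF receptor (LIFR), oncostatin M can use the OSM receptor (OSMR), and IL-6 and IL-11 first bind chains of their own. The complexes activate JAK kinases, which phosphorylate the transcription factor STAT3, and STAT3 switches on SOCS3, whose protein binds gp130 and the kinases and damps the signal. In kidney epithelium, LIF and its relatives are best known from tubule development and from the response to injury.

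Positions are those of the table, whose build is not named; for 37291 of its genes, all members included, symbol and ends match the RefSeq annotation of the dog assembly UU_Cfam_GSD_1.0. LIF lies on chromosome 26 (23812337 to 23815691, minus strand) and was counted over 3 exons of 763 bases in sum, and its neighbour at a gap of 14.94 kb, with 0 genes between, is the related ligand gene OSM. SOCS3 lies on chromosome 9 (3738946 to 3739623, plus strand) and was counted over 1 exon of 678 bases. Reads outside these short models were not counted, so the levels of LIF and SOCS3 given below hold for these exons only. OSMR (chromosome 4, 70933024 to 70983594) and LIFR (chromosome 4, 71245697 to 71292862) lie 262.1 kb apart, with 3 genes between. IL6ST is on chromosome 2 (42380727 to 42426940), STAT3 on chromosome 9 (20413942 to 20489100), CLCF1 on chromosome 18 (50588401 to 50598037), IL11 on chromosome 1 (103077747 to 103084856) and IL6 on chromosome 14 (36553276 to 36557530). Of the 9 members, only LIFR shares exon sequence with another gene of the table, LOC106558746 on the opposite strand, which had 0 counts in every well.

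The wells held 27047358 to 32478887 counts each. All 9 kidney epithelial markers examined (among them CDH1, EPCAM and PAX8) were above 1 CPM on average, with a summed level of 4913 to 5435 CPM (read counts scaled to library size) in control wells and 5160 to 5293 CPM in stretch wells. Among markers of other cells, the fibroblast genes COL1A2, LUM and DCN and the leukocyte genes PTPRC and CD3E had 0 counts in all wells. The summed fibroblast list stood at 1.80 to 4.23 CPM in control and 2.89 to 3.91 CPM in stretch wells and the endothelial list at 1.54 to 2.30 and 1.33 to 2.39 CPM. In each of these lists 1 gene was above 1 CPM on average, PDGFRA (3.21 CPM) and KDR (1.24 CPM). Across the table, 14571 genes passed the filter on low counts and were tested. A second fit held the replicate number as a block and is called the paired fit below; the fit without it is called unpaired. The deviations of same-numbered wells from their group means correlated weakly, at 0.108 to 0.328, and 3 of 8 wells correlated best with the well of their own number. The labels do not say what wells of 1 number shared, and calls made only in a paired fit rest on this pairing. In bulk RNA, a change in the number of cells that express a gene and a change in RNA per cell cannot be told apart.

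Resting MDCK cells held transcripts for the LIF and oncostatin M receptors and for the ligands LIF and CLCF1, and almost none for IL-6 or IL-11. Levels are compared as RPKM, that is normalised CPM per 1000 bases of exon length. In control wells, IL6ST stood highest of the members at 24.5 ± 2.37 RPKM (mean ± SD, n = 4), and its 4 wells lay above all 4 wells of the next gene. STAT3 (17.3 ± 3.30 RPKM), OSMR (14.5 ± 2.40 RPKM), CLCF1 (13.5 ± 3.68 RPKM) and LIFR (11.3 ± 0.764 RPKM) followed, and each overlapped its neighbour in this order. LIF (5.40 ± 0.864 RPKM) and SOCS3 (1.48 ± 0.349 RPKM) came next, each with all control wells below those of the gene above it. IL11 was at 0.0669 ± 0.0288 RPKM, and IL6 had 2 counts in all 4 control wells together. After stretch, LIF was at 8.98 ± 1.45 RPKM and SOCS3 at 2.36 ± 0.517 RPKM, and the order of the members changed only where CLCF1 (16.6 ± 2.96 RPKM) stood above OSMR (16.2 ± 2.45 RPKM), with a difference far smaller than the SD of either.

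Among genes of the wider pathway, IL27RA, the receptor chain that binds IL-27 and pairs with gp130, had 24.4 ± 1.36 RPKM in control wells, close to IL6ST. The private chains of IL-11 and IL-6 were lower, with IL11RA at 1.15 ± 0.492 RPKM and IL6R at 0.196 ± 0.0512 RPKM. CNTFR, the binding chain for CNTF and CLCF1, had 3 counts in the control wells together and 0 in the stretch wells. The ligand OSM had 1 count in each group. The kinase JAK1, at 41.7 ± 1.78 RPKM, was the most abundant of the 10 kinases and adaptors examined, which ranged down to 12.6 RPKM for TYK2.

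**Figure D1:**
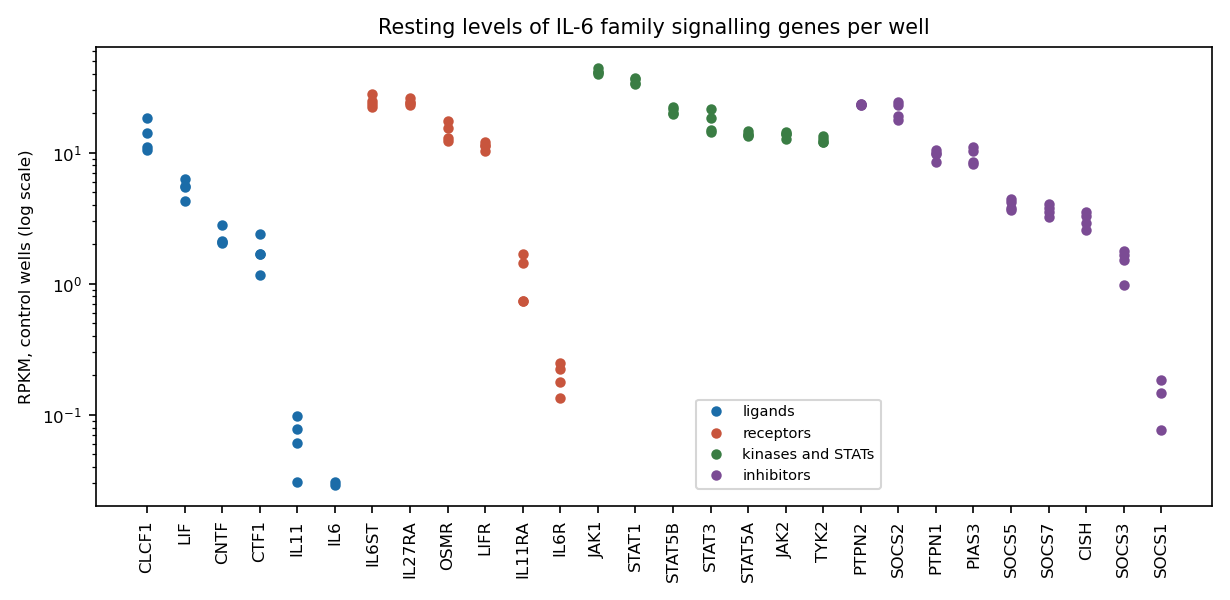
Resting levels of IL-6 family signalling genes in the 4 control wells, as RPKM on a log axis, with 1 point per well and colours for the role of each gene; wells with 0 counts are not drawn. The receptor genes IL6ST, IL27RA, OSMR and LIFR lie above 10 RPKM, while IL6R, IL11 and IL6 lie below 1 RPKM.

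LIF, which encodes the cytokine leukemia inhibitory factor, was the member that rose after stretch, in the paired fit. Its normalised level was 3.23, 4.18, 4.27 and 4.82 CPM in control wells 1 to 4 and 5.94, 7.61, 7.99 and 5.86 CPM in stretch wells 1 to 4. Every stretch well lay above every control well, a separation that 1.30% of all tested genes showed in this direction and 1.24% in the other. Control replicate 1 was the lowest well and stretch replicates 2 and 3 the highest. The means were 4.12 ± 0.660 and 6.85 ± 1.11 CPM (SD, n = 4), from 88 to 155 raw counts per control well and 173 to 233 per stretch well.

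In the paired fit, the log2 change of LIF was 0.73 ± 0.14 (SE), a fold of 1.66 with an unadjusted 95% interval of 1.36 to 2.02, and it passed the test (edgeR, adjusted p = 0.0147). Unpaired, the change was 0.73 ± 0.16 and did not pass (edgeR, adjusted p = 0.394). The block with 2 levels (replicates 1 and 2, replicates 3 and 4) gave an adjusted p of 0.0181 in edgeR. This division is not in the labels but was known from earlier results of these wells, so that p is no independent support. DESeq2 without a block gave an adjusted p of 0.00899. LIF was thus the 1 member called among 7 tested in the paired fit, against 0.700% of all genes (0.528% higher and 0.172% lower). It was also the 1 member called with the block of 2 levels, against 0.398% of all genes (0.281% higher), and by unpaired DESeq2, against 0.275% (0.220% higher). Unpaired edgeR called 0 members and 0% of all genes. At an unadjusted p under 0.05 it had 2 members, LIF and SOCS3, against 3.97% of all genes (2.22% higher). The paired fit had 4, LIF, SOCS3, CLCF1 and OSMR, against 8.89% (4.99% higher), and the same 4 were higher in all 4 pairs, as were 8.45% of all genes (7.84% were lower in all 4). All 7 tested members had a log2 change above 0 in both fits, against 48.2% of all genes unpaired and 48.8% paired. Over 25 alternatives with an adjusted p, LIF was higher after stretch in each and passed in 8, with adjusted p from 1.7e-06 to 0.999. The same-numbered pairs differed by 0.87, 0.86, 0.90 and 0.28 on the log2 CPM scale, so pair 4 was the smallest. In the paired fit, leaving out pair 1 or pair 2 ended the call (edgeR, adjusted p = 0.141 and 0.0773), while leaving out pair 3 or pair 4 did not (edgeR, adjusted p = 0.0202 in both). Within replicates 1 and 2 alone the log2 change was 0.86 (edgeR, adjusted p = 0.0644) and within replicates 3 and 4 alone it was 0.61 (edgeR, adjusted p = 0.332).

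**Figure D2:**
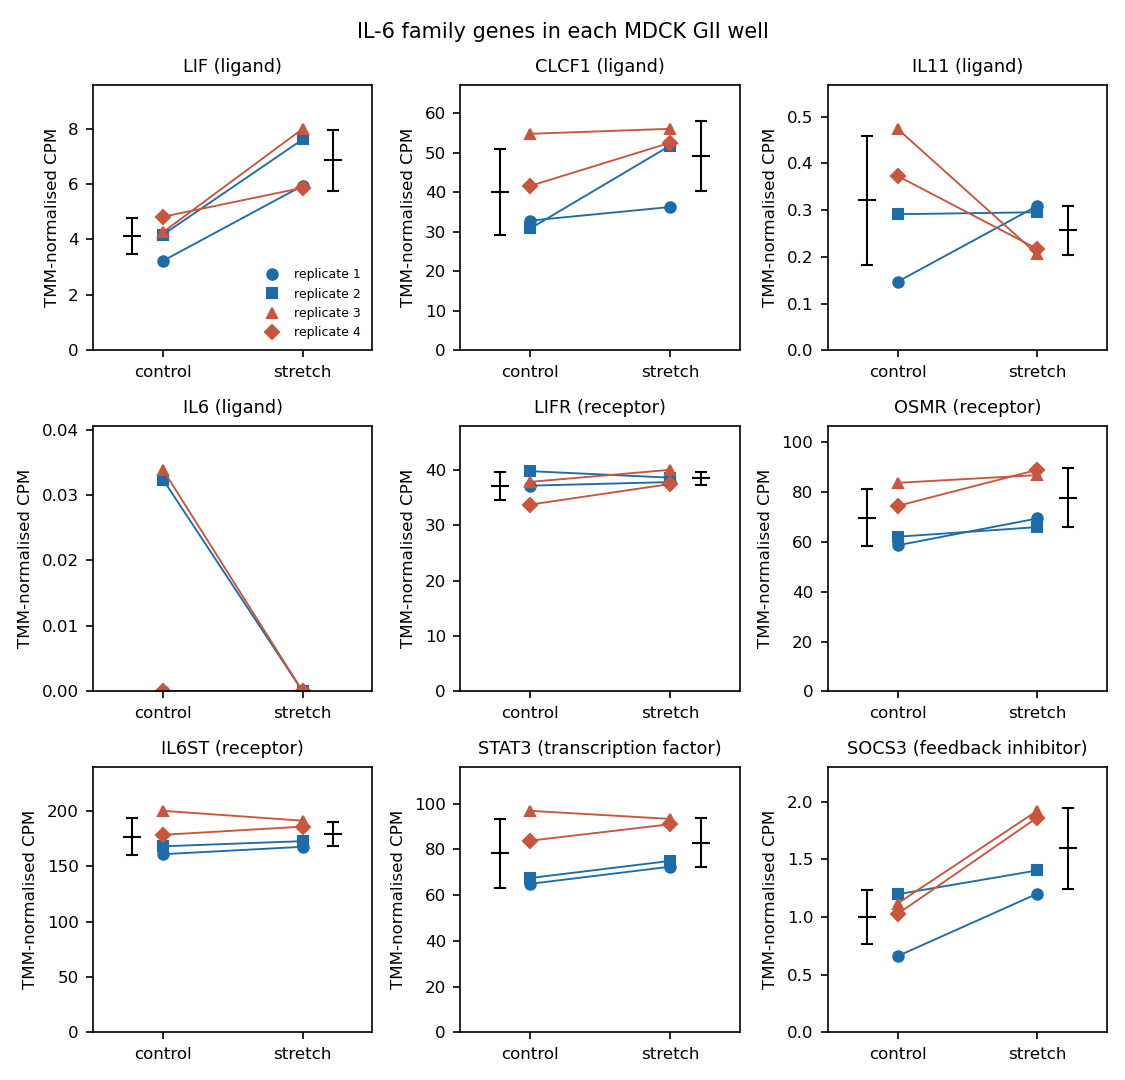
TMM-normalised CPM of the 9 members in each well, on linear axes from 0, with lines joining wells of the same replicate number (blue for replicates 1 and 2, red for 3 and 4) and black bars for the group mean ± SD (n = 4; none drawn for IL6, which had 2 counts in all). All LIF stretch wells, from 5.86 to 7.99 CPM, lie above the control wells, from 3.23 to 4.82 CPM, while IL6ST and LIFR overlap between groups.

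The other ligand members gave no call. CLCF1 encodes cardiotrophin-like cytokine factor 1, a secreted ligand of the family. It was at 32.8, 30.8, 54.8 and 41.6 CPM in control wells 1 to 4 and at 36.3, 51.8, 56.0 and 52.5 CPM in stretch wells 1 to 4. The groups overlapped, although the stretch well was the higher one in all 4 pairs, by 0.14, 0.75, 0.03 and 0.34 on the log2 scale. Its log2 change was 0.31 ± 0.12 paired, with an unadjusted 95% interval from 0.025 to 0.60 (edgeR, adjusted p = 0.513), and 0.30 ± 0.20 unpaired (edgeR, adjusted p = 0.999). Without pair 2, CLCF1 was at 0.17 paired, and without single wells it ran from 0.19 to 0.49 unpaired. Among 26 alternatives it passed only paired and with no filter on low counts (edgeR, adjusted p = 1.4e-05, range over the alternatives up to 1).

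IL11 and IL6 were too low to be tested. IL11 had 4, 9, 14 and 12 counts in control wells 1 to 4 and 9, 8, 6 and 7 in stretch wells 1 to 4, or 0.321 ± 0.138 and 0.257 ± 0.0529 CPM, with overlapping groups. In the fit that kept low genes, the log2 change of IL11 was -0.33 ± 0.51 (edgeR unpaired, adjusted p = 1.00). IL6 had 1 count in control replicates 2 and 3 and 0 in the other 6 wells. The 0 counts in the stretch wells allow at most 0.0255 CPM over that group (3 counts of 117504100), a limit for counting error only.

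SOCS3, the feedback inhibitor, had the second highest change of the tested members but did not pass the test. It was at 0.661, 1.198, 1.12 and 1.03 CPM in control wells 1 to 4 and at 1.202, 1.40, 1.92 and 1.86 CPM in stretch wells 1 to 4, from 18 to 60 raw counts per well. Stretch replicates 3 and 4 were the highest wells and control replicate 1 the lowest. The groups met at their edges: with TMM factors the lowest stretch well stood just above the highest control well, and with library size alone it stood just below (1.204 against 1.207 CPM). The pairs differed by 0.80, 0.22, 0.75 and 0.82 on the log2 scale. The log2 change was 0.68 ± 0.24 paired, with an unadjusted 95% interval from 0.16 to 1.19 (edgeR, adjusted p = 0.343), and 0.67 ± 0.25 unpaired (edgeR, adjusted p = 0.999). It passed under none of the 25 alternatives that gave an adjusted p, which ranged from 0.193 to 1. The interval spans folds from 1.12 to 2.28, so at 18 to 60 counts a change as large as that of LIF was neither called nor outside the interval.

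None of the receptor members gave a call. OSMR was at 58.6, 62.01, 83.6 and 74.4 CPM in control wells 1 to 4 and at 69.3, 65.9, 86.7 and 88.8 CPM in stretch wells 1 to 4. The groups overlapped broadly, and the stretch well was the higher in all 4 pairs, by 0.05 to 0.26 on the log2 scale. Its log2 change was 0.16 ± 0.05 paired (edgeR, adjusted p = 0.215, from 0.0732 to 1 over 26 alternatives). It did not pass, and its unadjusted 95% interval ran from 0.05 to 0.26.

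LIFR, the chain that binds LIF, was at 37.2, 39.8, 37.9 and 33.8 CPM in control wells and at 37.8, 38.6, 40.1 and 37.5 CPM in stretch wells. The groups overlapped, and 3 of 4 pairs were higher. Its paired log2 change was 0.05, with an unadjusted 95% interval from -0.06 to 0.17. IL6ST was at 161, 168, 200 and 178 CPM in control wells and at 168, 173, 191 and 186 CPM in stretch wells. Its paired log2 change was 0.02, with an interval from -0.06 to 0.10, so both receptor chains had intervals below the whole interval of LIF (0.44 to 1.01); the difference between the genes was not tested. For LIFR and IL6ST the paired adjusted p was 0.885 and 0.943 in edgeR's test. Both changed sign when wells were left out, LIFR to -0.01 within replicates 1 and 2 and IL6ST to between -0.02 and 0.08 when single wells were omitted.

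STAT3 was at 64.95, 67.5, 96.9 and 83.8 CPM in control wells 1 to 4 and at 72.4, 74.96, 93.3 and 91.0 CPM in stretch wells 1 to 4. Replicates 3 and 4 were high and replicates 1 and 2 low in both groups, and 3 of 4 pairs were higher after stretch. Its log2 change was 0.09 ± 0.05 paired (edgeR, adjusted p = 0.649) and 0.08 ± 0.14 unpaired (edgeR, adjusted p = 0.999). Transcript level says nothing of the phosphorylation of the protein, which was not measured here.

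The members differed more between replicate numbers than between groups for 4 of the 7 tested genes. In both control and stretch wells, replicates 3 and 4 of CLCF1, OSMR, IL6ST and STAT3 all lay above replicates 1 and 2, a pattern found in 13.9% of all tested genes, with 13.1% the other way round. For STAT3 the mean of replicates 3 and 4 exceeded that of replicates 1 and 2 by 0.44 in control and 0.32 in stretch wells on the log2 scale. For OSMR these differences were 0.39 and 0.38, for IL6ST 0.20 and 0.15, and for CLCF1 0.58 and 0.32. Each is larger than that gene's log2 change with stretch, by little for CLCF1 in stretch wells. LIF (0.30 and 0.03), LIFR (-0.11 and 0.02) and SOCS3 (0.25 and 0.52) did not keep these sets of wells apart in both groups. The labels give no difference between replicate numbers, and what sets them apart was not tested. This division was known from earlier results of these wells, so no test is given.

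Once group means were removed, these 4 genes varied together from well to well. They were named for their shared replicate pattern, so high correlations between their deviations follow in part from that choice. Over 8 wells, the deviations of STAT3 had a Pearson r of 0.98 with IL6ST, 0.97 with OSMR and 0.90 with CLCF1, and those of OSMR and IL6ST had 0.94. The lowest r among the 4 genes was 0.78, between CLCF1 and OSMR. LIFR stood apart, with r of -0.17 to STAT3, -0.18 to OSMR, 0.02 to IL6ST and -0.10 to CLCF1. LIF lay lower than the 4 genes among themselves, with r of 0.33 to OSMR, 0.46 to STAT3, 0.48 to IL6ST and 0.52 to CLCF1. SOCS3 was at 0.53 to CLCF1, 0.67 to STAT3, 0.71 to OSMR and 0.72 to IL6ST. All values share the same 8 libraries and are given as a description.

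Genes were also ranked by how closely their pattern over wells followed that of LIF. Among 13134 tested genes with a mean of at least 1 CPM, the 5 with the highest Pearson r to LIF in log2 CPM over 8 wells were CCN1 (0.98), HBEGF (0.98), OLFM1 (0.97), BCL2L1 (0.97) and SERTAD1 (0.96). CCN1 encodes a secreted matrix-associated protein, HBEGF a ligand of EGFR, OLFM1 a secreted olfactomedin-domain protein, BCL2L1, which is also on the list of STAT3 targets described below, an inhibitor of apoptosis, and SERTAD1 a transcriptional coregulator. Since the difference between groups raises these values, r was also computed on deviations from the group means. There it was 0.95 for CCN1, 0.93 for HBEGF, 0.89 for OLFM1, 0.87 for BCL2L1 and 0.84 for SERTAD1. These genes were picked as the highest of 13134 over the same 8 wells. The choice raises the second set of values too, so they are a description and no test of the likeness. All 5 were lowest in control replicate 1 and higher in the stretch well of all 4 pairs, as LIF was. Their choice by likeness to LIF favours this shared pattern.

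The mean level of OLFM1 was 4.93 ± 0.418 CPM in control and 6.51 ± 0.457 CPM in stretch wells, and its difference of 0.40 on the log2 scale did not pass (edgeR paired, adjusted p = 0.184). SERTAD1 was at 18.9 ± 1.34 CPM in control and 24.5 ± 2.78 CPM in stretch wells. It rose by 0.37 on the log2 scale in the paired fit (edgeR, adjusted p = 0.0286, and 0.513 unpaired), a call that ended without pair 1 or pair 2 (edgeR, adjusted p = 0.184 and 0.203). HBEGF passed in the paired fit and CCN1 did not (edgeR, adjusted p = 1.8e-05 and 0.149), at 0.80 and 0.89. Other fits did not keep this contrast. Unpaired edgeR called neither gene (adjusted p = 0.188 for HBEGF and 0.709 for CCN1). With replicates blocked in 2 levels, HBEGF again fell short in edgeR, at an adjusted p of 0.0668. Unpaired DESeq2 called both genes (adjusted p = 4.2e-05 for HBEGF and 0.0150 for CCN1). Paired limma-voom also called both (adjusted p = 0.00043 for each). The changes of CCN1 and HBEGF were of similar size to that of LIF, those of OLFM1 and SERTAD1 smaller.

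**Figure D3:**
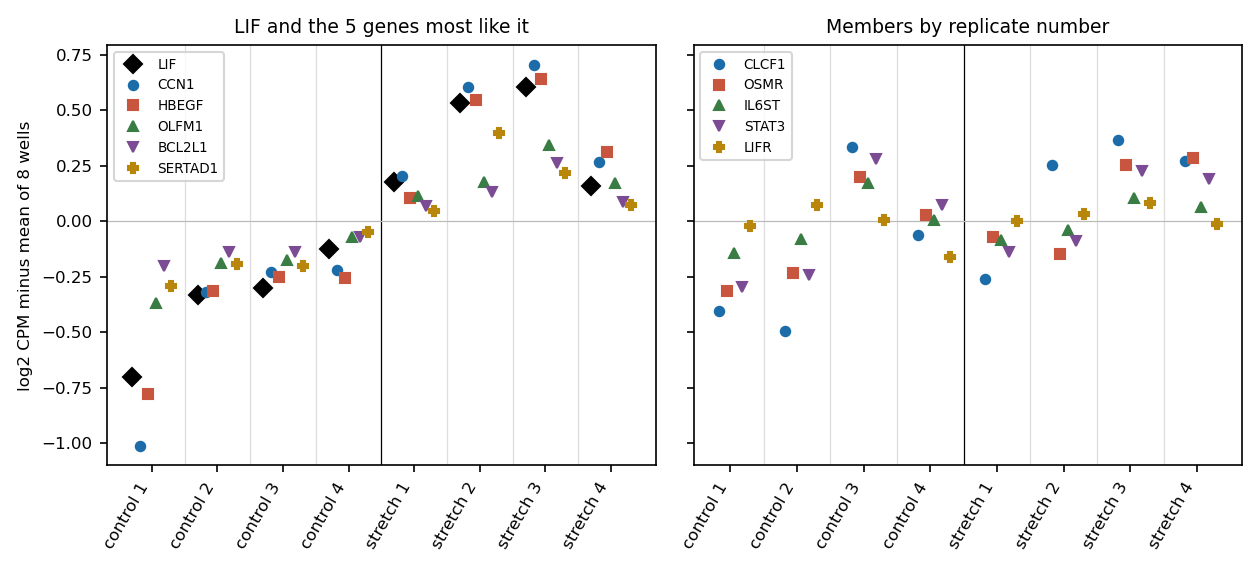
Log2 CPM minus each gene's mean over 8 wells, with 1 point per gene and well; the left panel shows LIF with the 5 genes most like it, the right panel 5 members. On the left, control replicate 1 is the lowest well for LIF, CCN1 and HBEGF; on the right, CLCF1, OSMR, IL6ST and STAT3 are higher in replicates 3 and 4 than in 1 and 2 of the same group, while LIFR is not.

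Of 30 other pathway genes, 23 passed the filter on low counts, and 0 were called in the paired edgeR fit, against 0.700% of all genes. There, CISH, PTPN1 and SOCS7 were higher with an unadjusted p under 0.05 (4.99% of all genes were higher). Unpaired edgeR and unpaired DESeq2 also called 0, against 0% and 0.275% of all genes. At an unadjusted p under 0.05 they had 1 and 2 genes (3.97% and 4.21% of all genes). The median log2 change of the 23, paired, was -0.01, against -0.002 over all genes tested. Of these 23 genes, 9 were above 0, against 48.8% of all genes. The 10 kinases and adaptors lay within -0.05 and 0.01 on the log2 scale, and their unadjusted 95% intervals within -0.14 and 0.12, so a change of the size seen for LIF lay outside each of them. PTPN11, GRB2 and STAT5A, which carry signals from the receptor to the MAPK pathway and to the nucleus, were at -0.05, -0.03 and -0.03.

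The 3 other inhibitors with the smallest p were CISH, PTPN1 and SOCS7. CISH, a STAT5-induced relative of SOCS3, was at 6.03 ± 0.816 CPM in control and 7.62 ± 1.32 CPM in stretch wells, higher in all 4 pairs and with overlapping groups. Its log2 change was 0.33 ± 0.13 paired (edgeR, adjusted p = 0.398). PTPN1, a tyrosine phosphatase that acts on JAK kinases, was at 0.16 and SOCS7 at 0.14 (edgeR paired, adjusted p = 0.353 and 0.479), also higher in all 4 pairs. SOCS2 was at -0.01, and SOCS1 had 0 to 7 counts per well and was not tested.

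Among the other ligands, CNTF was at 0.22 and CTF1 at 0.07 on the log2 scale, paired, neither of which passed (edgeR, adjusted p = 0.794 and 0.980). CNTF shares exon sequence on the same strand with ZFP91, which had 5172 to 6654 counts per well, so its counts may belong in part to that gene. Among the other receptors, IL11RA was at 0.19, IL27RA at 0.05 and IL6R at -0.26 (edgeR paired, adjusted p = 0.855, 0.886 and 0.875). EBI3, a partner chain of IL-27, had 0 counts in the control wells and 0, 3, 4 and 3 in stretch wells 1 to 4. It was not tested and shares exon sequence with ANKRD24.

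Known STAT3 target genes were listed as a readout next downstream. Of 30 genes, the table held 28, and 23 passed the filter on low counts. In the paired fit 1 was called, ICAM1, against 0.700% of all genes. There, 18 of 23 lay above 0, against 48.8% of all genes, and the median log2 change was 0.19, against -0.002 over all genes. At an unadjusted p under 0.05 there were 12 higher and 0 lower (4.99% of all genes were higher). In all 4 pairs, 12 were higher and 1, BCL6, was lower, against 8.45% and 7.84% of all genes. Unpaired edgeR called 0, as over all genes, with 5 at an unadjusted p under 0.05 (3.97% of all genes, 2.22% higher). DESeq2 called PIM3 and FOSL2 unpaired, where it called 0.275% of all genes. Paired, it called PIM3, FOSL2 and ICAM1, and 1.48% of the genes to which it gave an adjusted p. Many genes of the list, such as MYC, JUNB, FOSL2 and KLF4, also answer to MAPK and other signals, so the list is not specific to STAT3. The targets made mainly by liver, FGA, FGB, FGG and HAMP, had 0 counts in every well.

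ICAM1, an adhesion molecule that binds leukocytes, was at 44.3, 49.1, 73.4 and 64.3 CPM in control wells 1 to 4 and at 63.5, 72.5, 93.9 and 74.5 CPM in stretch wells 1 to 4. The groups overlapped, but every pair was higher, by 0.52, 0.56, 0.36 and 0.21 on the log2 scale. It rose by 0.41 ± 0.06 in the paired fit (edgeR, adjusted p = 0.00203), and the call ended without pair 1 (edgeR, adjusted p = 0.0513). Neither the block of 2 levels nor the unpaired fit called it (edgeR, adjusted p = 0.125 and 0.999). It shares exon sequence with LOC119877329 on the opposite strand, which had 0 to 3 counts per well.

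BCL2L1 was at 20.2, 21.0, 21.1 and 22.1 CPM in control wells and at 24.3, 25.4, 27.8 and 24.6 CPM in stretch wells, without overlap. Its log2 change of 0.27 ± 0.06 did not pass (edgeR paired, adjusted p = 0.0674). PIM3, a kinase that promotes survival, was at 47.6 ± 6.56 CPM in control and 67.7 ± 8.06 CPM in stretch wells, also without overlap, with a log2 change of 0.51 ± 0.10 (edgeR paired, adjusted p = 0.112). Unpaired DESeq2 called it (adjusted p = 0.00505). In all, 6 of the 23 targets had every stretch well above every control well, against 1.30% of all genes; the other 4 were KLF4, FOSL2, IRF1 and IL4R. These 4, JUNB and MYC are named after their values were seen. KLF4 had the highest log2 change of the list, 0.72 ± 0.19, at 1.65 ± 0.233 CPM in control and 2.71 ± 0.229 CPM in stretch wells (edgeR paired, adjusted p = 0.124). JUNB (0.48) and MYC (0.30) were higher on average with overlapping groups and did not pass (edgeR paired, adjusted p = 0.722 and 0.148).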

How the data were processed

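The authors deposited 1 table of raw exon read counts by gene. The submitters' processing notes name FastQC 0.11.8, Trim Galore 0.6.5, STAR 2.7.3a, Subread and featureCounts. Strand setting, treatment of multi-mapping reads and genome build are not given in the sources used here. All 8 count columns matched a sample by library name, with 0 further columns of per-sample values. The table pairs 37291 of 37952 symbols with the RefSeq table, all with identical ends. No sequences were used here.

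Tests used edgeR 4.0.16 (quasi-likelihood) in R 4.3.3 (TMM factors, filterByExpr at a minimum count of 10 and total of 15), two-sided and adjusted by Benjamini-Hochberg over 14571 genes at 0.05. The model had a stretch term, and the replicate block was an alternative. Pairs come from the numbers in the sample titles, which the labels tie to no shared device; same-numbered wells had deviations from group means correlated at 0.199 on average, and each of the 4 pairs was above the 0.1 taken as the minimum for pairing. SE is the log2 change divided by the root of F. CPM and RPKM used TMM-scaled totals, and log2 CPM a prior count of 2. Other fits used DESeq2 1.42.0, limma 3.58.1, other scaling and filters, subsets of wells and left-out wells. The scripts were tested on simulated data. Chi-square per degree of freedom between wells of a group was 5.56 to 26.8, so all wells were kept.

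The members and gene lists were chosen with earlier results of these data known. Some results of the listed genes are not reported here. The text names all members, genes of each list that passed or else the 3 with the smallest p with the block, and the 5 genes most correlated with LIF; other names are given for their role or level, or are stated to be chosen afterwards. Figures were drawn with matplotlib 3.10.9.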

Additional observations from a re-analysis of the deposited data

Results flagged for a closer look

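In 3 of 52 groups of 4 wells examined, over the named genes, 1 well stood apart by the gap to its nearest neighbour over the range (Dixon); chance gives about 1 in 20, or 2.6. CCN1 stood at 78.9 CPM in control replicate 1, against 128 to 137 in the other control wells. HBEGF stood at 15.9 CPM in the same well, against 21.9 to 22.95. CNTF stood at 4.27 CPM in control replicate 2, against 3.15 to 3.23. The first of these wells was also the lowest for LIF (3.23 CPM) and SOCS3 (0.661 CPM), whose groups did not meet this criterion.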

How the results depend on the processing

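Across 26 alternatives, LIF, CLCF1, OSMR, STAT3 and SOCS3 kept a positive change wherever a value was given; DESeq2 with the replicate block gave no adjusted p for LIF and SOCS3. Of all genes, 0 were called without the block. The count was 102 with the replicate block, 58 with 2 levels, 40 with DESeq2, 11 with no filter, 51 with wells 1 and 2 alone and 25 with wells 3 and 4 alone. With the replicate block it was 145 in DESeq2, 122 in limma-voom, 448 with no filter and 105 with DESeq2 size factors, and 43, 67, 186 and 74 without pairs 1, 2, 3 and 4. Leaving out single wells gave 0 to 12: 12 without control replicate 3 (where 1 STAT3 target was called), 3 without stretch replicate 1, 1 without control replicate 2 or stretch replicate 4, otherwise 0.

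Of the members, 1 was called with either block, with DESeq2 and, with the replicate block, in limma-voom or with DESeq2 size factors, 2 with the block and no filter, 0 without any single well, and 0 to 1 when pairs were left out. Of the STAT3 targets, 1 was called with the replicate block, 1 with it and DESeq2 size factors, 2 in DESeq2, 3 in DESeq2 with the block, 4 in limma-voom with the block, 9 with the block and no filter, 2 within replicates 1 and 2, 0 to 1 without single wells, and 0 to 3 when pairs were left out. No other pathway gene was called under any of the 26, with 0 to 5 at an unadjusted p under 0.05.

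Signs reversed, with no call, for some small changes. Without single wells, CTF1 ran from -0.15 to 0.29 (-0.06 without control replicate 3), GRB2 from -0.050 to 0.0051, IL11RA from -0.026 to 0.45, and IL6ST from -0.020 to 0.085 (-0.00043 without control replicate 2 and -0.011 without stretch replicate 3). Without pair 3, with the replicate block, CTF1 was at -0.17 and GRB2 at 0.019. LIFR was at -0.011 with wells 1 and 2 alone. The cause was not tested. The counts of IL6, IL11 and SOCS3 limit what depth can show for them.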
